A study of Homo sapiens with 6 samples.

Results

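The genes described here are 10 members of the amino acid branch of the integrated stress response and of serine synthesis. They are ATF4, DDIT3, TRIB3, CHAC1 and ASNS, and the enzyme genes PHGDH, PSAT1, PSPH, SHMT2 and MTHFD2. They were taken by symbol from count tables of 24462 distinct gene symbols, where each stands on 1 line. All 10 passed the filter on low counts and are among the 15386 genes tested.

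RNA was sequenced from 6 libraries in 3 groups of 2, which the labels call MDA-MB-231, an established line of breast cancer that lacks the hormone receptors and HER2. The control cells carry a retrovirus made from a control plasmid. The other groups are labelled as a stable ELK3 knockdown of the same line, made with retroviruses that carry shRNA. They received either the plasmid pLenti-cMyc-DDK (here the vector-labelled libraries) or pLenti-cMyc-DDK-ELK3 (the ELK3-labelled libraries), 1 µg with Lipofectamine 2000, for 48 hours. No transfection with these plasmids is given for the controls, so each contrast with them joins the labelled knockdown with transfection. The labels do not say whether replicates were separate cultures, so p-values measure only the spread between these libraries.

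In the integrated stress response, kinases that sense stress phosphorylate the initiation factor eIF2, which slows translation in general while it favours translation of the transcription factor ATF4. ATF4 raises genes for amino acid supply, among them the serine route, in which PHGDH, PSAT1 and PSPH turn a glycolytic intermediate into serine. SHMT2 and MTHFD2 then pass a carbon unit of serine to folate in mitochondria. ATF4 is controlled to a large part at translation, so its mRNA level is not a measure of its protein. Among breast cancer lines, PHGDH is known to be abundant in some and scarce in others, and MDA-MB-231 is known as a line with little of it.

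Library totals ran from 4884483 to 9131214 counts. Levels are counts per 1000000 counts of a library, with library sizes scaled by the TMM method (CPM). ELK3 itself went against the labels: it stood at 128.6 and 123.9 CPM in the controls, at 758.9 and 697.2 in the vector-labelled libraries, and at 20.4 and 22.6 in the ELK3-labelled libraries. The headers inside the deposited tables name the vector-labelled libraries "KD+E" and the ELK3-labelled ones "KD", the reverse of the labels. Every direction below follows the labels, which do not describe the ELK3 level measured. The summed level of 12 genes typical of MDA-MB-231 was 6108 to 6295 CPM in the controls, 1037 to 1061 in the vector-labelled and 927.3 to 970.5 in the ELK3-labelled libraries. All 12 were detected in every group, and all 12 fell in both contrasts with the controls. The sum over 12 genes typical of the embryonic kidney line HEK293 was 267.1 to 271.4 CPM in the controls. It was 792.4 to 851.2 in the vector-labelled and 1304 to 1318 in the ELK3-labelled libraries. PAX2 was at 0 counts in the controls, and at means of 0.988 and 2.18 CPM in the vector-labelled and ELK3-labelled libraries. PAX8 went the other way, with means of 18.2, 0.441 and 0.345 CPM in the controls, vector-labelled and ELK3-labelled libraries. Of the 11 HEK293 genes tested, 7 rose and 2 fell in the vector-labelled libraries, and 8 rose and 1 fell in the ELK3-labelled ones. Between the plasmid groups, 5 of these 11 were higher and 1 lower in the ELK3-labelled libraries (median log2 fold change 0.2). Of the 12 MDA-MB-231 genes, 2 were higher and 4 lower there (median -0.12), where 30% of all genes were called higher and 29.6% lower. Whether the plasmid groups differ in their cells was not tested. In every contrast with the controls, a difference in cell line and the labelled treatment cannot be told apart. Transcripts typical of liver, among them ALB and the apolipoprotein genes, were abundant in every library although the labels name no liver. Their sum over 12 genes, all detected in every group, was 12434 to 12837 CPM in the controls, 12476 to 13426 in the vector-labelled and 10117 to 10621 in the ELK3-labelled libraries. None of the 12 was called between the vector-labelled libraries and the controls, and all 12 were lower in the ELK3-labelled libraries than in either other group (median log2 fold changes -0.29 and -0.33). The 12 lymphocyte and NK cell markers summed to 215.4 to 224.9, 255.9 to 281.6 and 223.4 to 229.8 CPM in the same order, a sum in which NCAM1 (means 10.4, 45.3 and 60.5 CPM) went against others. Of the 11 tested, 2 were higher and 0 lower in the vector-labelled libraries, 1 was higher and 4 lower in the ELK3-labelled ones (median -0.37), and 1 was higher and 5 lower between the plasmid groups (median -0.35). The 8 luminal breast markers summed to 145.1 to 153.9, 151.9 to 161.5 and 170.5 to 173.4 CPM and went both ways, with 4 higher and 3 lower, 3 higher and 2 lower, and 2 higher and 4 lower in the 3 comparisons. Among them GATA3 stood at 17.6, 39.5 and 49.1 CPM and EPCAM at 12.8, 3.12 and 1.17 CPM. What RNA of another source adds to the levels of the 10 genes was not tested. Fewer cells of a kind and less RNA per cell cannot be told apart in such bulk samples.

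The 10 genes did not move as 1 block. In the vector-labelled libraries against the controls, DDIT3, ASNS, PHGDH and MTHFD2 rose, TRIB3, PSAT1 and PSPH fell, and ATF4, CHAC1 and SHMT2 did not pass an adjusted p of 0.05. That is 4 genes higher and 3 lower, where 37% of all tested genes were called higher and 35.3% lower. The median log2 fold change of the 10 was -0.16, beside 0.05 for all genes tested, and the median size without sign was 0.72 beside 0.85. With library totals in place of TMM, the median of the 10 was -0.03, beside 0.18 for all genes. In the ELK3-labelled libraries against the controls, ATF4, ASNS, PHGDH and MTHFD2 rose and TRIB3, CHAC1, PSAT1 and SHMT2 fell, with 31.8% of all tested genes called higher and 30.8% lower. The median of the 10 was -0.17, beside 0.02 for all genes, and -0.01 beside 0.18 with library totals. The median size without sign was 0.75 beside 0.59. Of all genes called there, 50.8% were higher, and 61.1% with library totals. Between the ELK3-labelled and the vector-labelled libraries, ATF4, TRIB3 and PSPH were higher and DDIT3, CHAC1, PSAT1, SHMT2 and MTHFD2 lower, where 30% of all genes were called higher and 29.6% lower. There the median was -0.16, beside -0.02 for all genes (-0.13 beside 0.01 with library totals), and the median size 0.51 beside 0.53. With 7, 8 and 8 of the 10 called and 72.3%, 62.6% and 59.6% of all genes called, the shares are near the background. The libraries of the groups did not overlap for 9, 9 and 8 of the 10, beside 84.6%, 80.2% and 79.4% of all genes. The 2 contrasts with the controls share the control libraries, so their likeness is not independent.

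**Figure D1:**
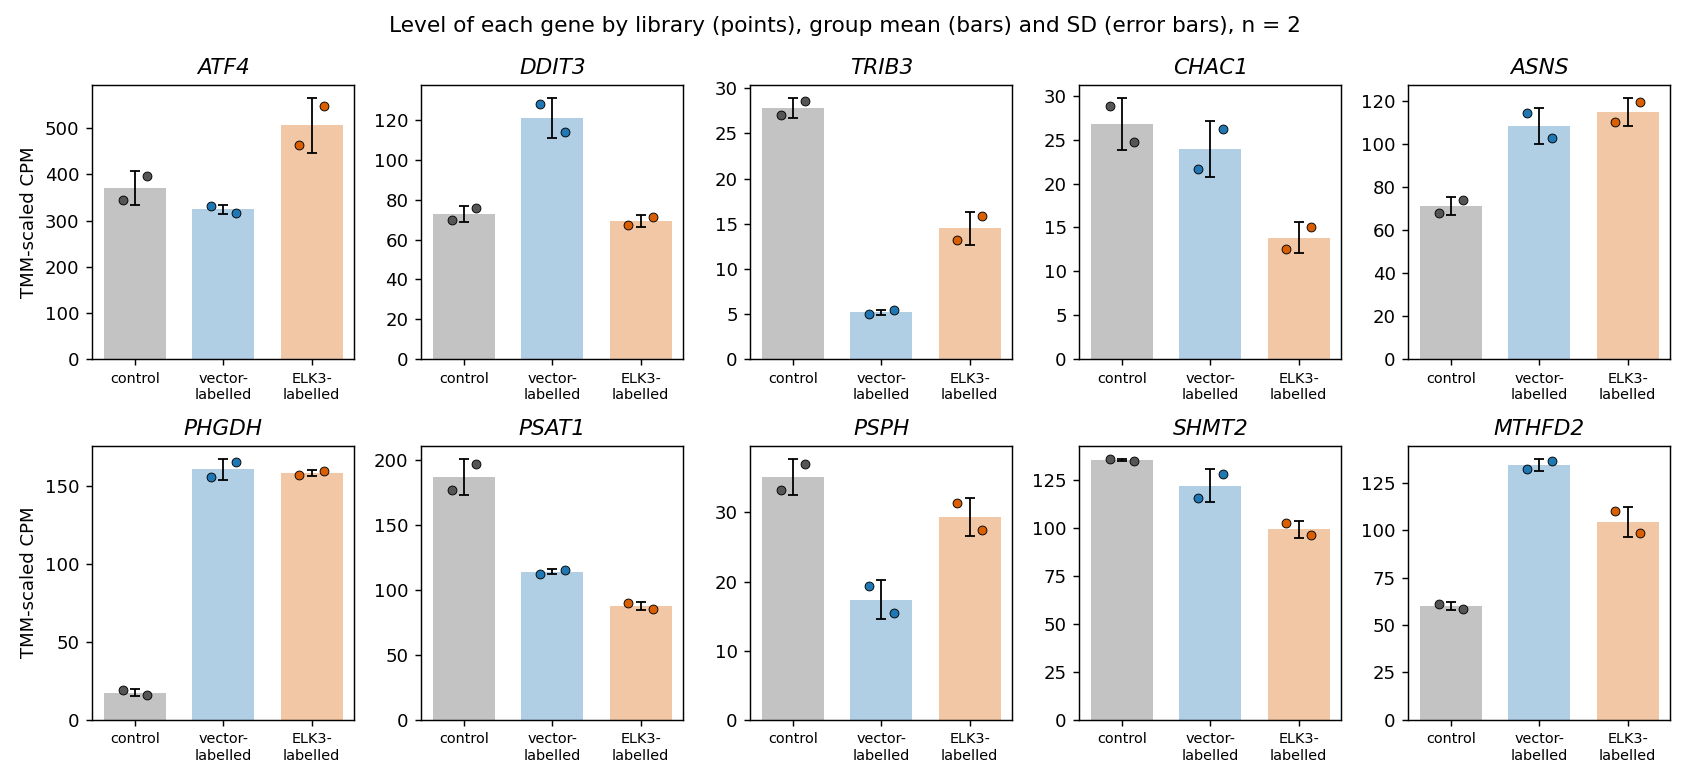
Level of each of the 10 genes in TMM-scaled CPM (vertical axes from 0, a scale of its own for each gene) in the control, vector-labelled and ELK3-labelled libraries; points are libraries, bars are means and error bars are SD over n = 2. PHGDH stands at 15.7 to 19.2 in the controls and at 156.2 to 165.7 in the other 4 libraries, while PSAT1 is highest in the controls.

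The serine route was split at its first step, with PHGDH far higher and PSAT1 lower in both plasmid groups than in the controls. PHGDH, the dehydrogenase that commits carbon from glycolysis to serine, maps to chr1:119648411-119744226 (plus strand; gene positions are from GENCODE 29 on GRCh38). The controls held 19.2 and 15.7 CPM of PHGDH (92 and 73 counts). The vector-labelled libraries held 156.2 and 165.7 CPM (1063 and 828 counts), and the ELK3-labelled libraries 157.1 and 160.0 CPM (988 and 1505 counts). Every plasmid library thus lay far above both controls, and the plasmid groups overlapped each other. PHGDH was 9.21-fold higher in the vector-labelled libraries (log2 fold change 3.20 ± 0.12 SE, adjusted p = 7.85e-22) and 9.08-fold higher in the ELK3-labelled ones (3.18 ± 0.12, adjusted p = 8.44e-22). Between the plasmid groups the log2 fold change was -0.02, with a 95% interval from -0.20 to 0.16 (adjusted p = 0.866). ELK3 itself was 33.9-fold lower in the ELK3-labelled than in the vector-labelled libraries. Whether ELK3 bears on the PHGDH level was not tested.

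PSAT1, the aminotransferase of the second step, maps to chr9:78297143-78330093 (plus strand). Its level was 177.1 and 196.8 CPM in control libraries, 112.5 and 115.3 in vector-labelled and 90.0 and 85.3 in the ELK3-labelled libraries. No 2 groups overlapped, and the order was controls, vector-labelled, ELK3-labelled. PSAT1 was 1.64-fold lower in the vector-labelled (-0.72 ± 0.09, adjusted p = 1.63e-08) and 2.13-fold lower in the ELK3-labelled libraries (-1.09 ± 0.09, adjusted p = 1.76e-12) than in the controls. The step between the plasmid groups was -0.38 ± 0.09 (adjusted p = 0.00067).

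PSPH, the phosphatase that releases free serine, maps to chr7:56011051-56051604 (minus strand). The controls held 33.3 and 37.0 CPM, the vector-labelled libraries 19.4 and 15.4 (132 and 77 counts) and the ELK3-labelled libraries 31.3 and 27.4. The vector-labelled libraries were the low pair. PSPH was 2.02-fold lower there than in the controls (-1.0 ± 0.16, adjusted p = 1.38e-06) and 1.69-fold higher in the ELK3-labelled than in the vector-labelled libraries (0.73 ± 0.15, adjusted p = 0.000135). The ELK3-labelled libraries both lay under both controls, but that difference did not pass the test (-0.27, 95% interval -0.56 to 0.03, adjusted p = 0.109).

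**Figure D2:**
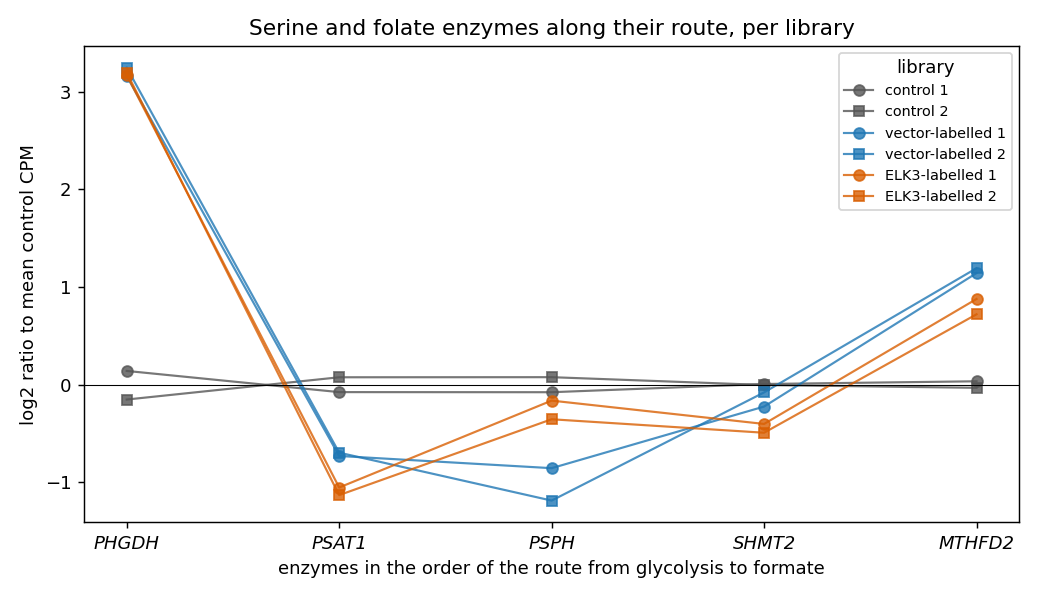
Log2 ratio of each library's CPM to the mean of the 2 controls (vertical axis) for PHGDH, PSAT1, PSPH, SHMT2 and MTHFD2 in the order of their reactions; each line is 1 library, and lines only join the points of a library. In all 4 plasmid libraries the ratio is above 3 for PHGDH, below 0 for PSAT1, PSPH and SHMT2, and above 0 for MTHFD2.

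The mitochondrial enzymes SHMT2 and MTHFD2, which carry the carbon unit of serine onward, also parted. SHMT2, which splits serine into glycine and a folate-bound carbon unit, maps to chr12:57229327-57234935 (plus strand). It stood at 136.1 and 135.3 CPM in control libraries, 116.0 and 128.3 in vector-labelled and 102.6 and 96.3 in the ELK3-labelled libraries. The groups did not overlap, but only the ELK3-labelled libraries differed from the controls by the test (-0.45 ± 0.09, adjusted p = 7.21e-05). The vector-labelled libraries had a log2 fold change of -0.15 (95% interval -0.34 to 0.03, adjusted p = 0.132). The ELK3-labelled libraries were lower than the vector-labelled ones by -0.30 ± 0.09 (adjusted p = 0.00578). That call was lost when vector-labelled replicate 2 was left out (adjusted p = 0.115), and also when ELK3-labelled replicate 2 was (0.0907).

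MTHFD2, the dehydrogenase and cyclohydrolase that oxidises the folate-bound unit, maps to chr2:74198562-74217565 (plus strand). The controls held 61.3 and 58.5 CPM, the vector-labelled libraries 132.1 and 136.7 and the ELK3-labelled libraries 109.9 and 98.6. All 3 groups were apart, with the controls lowest. MTHFD2 was 2.24-fold higher in the vector-labelled (1.16 ± 0.10, adjusted p = 2.65e-12) and 1.74-fold higher in the ELK3-labelled libraries (0.79 ± 0.10, adjusted p = 2.39e-08), and the 2 plasmid groups differed by -0.37 ± 0.09 (adjusted p = 0.000751). Between the plasmid groups the 12 liver markers were all lower as well, with a median of -0.33. Their part in the differences of this size in PSAT1, SHMT2 and MTHFD2 was not tested.

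ATF4 and DDIT3, the transcription factors of the group, went opposite ways between the plasmid groups. ATF4 maps to chr22:39519695-39522685 (plus strand). Its level was 344 and 396.5 CPM in control libraries, 331.5 and 316.6 in vector-labelled and 464 and 548 in the ELK3-labelled libraries. Both ELK3-labelled libraries were above all others. ATF4 rose there by 0.45 ± 0.09 against the controls (adjusted p = 4.18e-05) and was higher by 0.64 ± 0.09 than in the vector-labelled libraries (adjusted p = 1.54e-07). The vector-labelled libraries had -0.19 ± 0.09 against the controls (adjusted p = 0.0563), which does not pass the threshold. It did pass when 1 library was left out, in 3 cases: control replicate 1 (-0.31, adjusted p = 0.00313), ELK3-labelled replicate 1 (0.0474) and ELK3-labelled replicate 2 (0.0448).

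DDIT3, or CHOP, is a C/EBP-family factor induced under prolonged stress, with a part in cell death. It maps to chr12:57516588-57521737 (minus strand). The controls held 70.1 and 75.9 CPM, the vector-labelled libraries 128.2 and 113.9, and the ELK3-labelled libraries 67.3 and 71.4. The vector-labelled pair was high, and the other 2 groups overlapped. DDIT3 rose by 0.73 ± 0.10 in the vector-labelled libraries (1.66-fold, adjusted p = 7.64e-08) and was 1.75-fold lower in the ELK3-labelled than in the vector-labelled ones (-0.80 ± 0.10, adjusted p = 1.05e-08). Against the controls the ELK3-labelled libraries had -0.07 (95% interval -0.28 to 0.14, adjusted p = 0.57).

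TRIB3, CHAC1 and ASNS are classical targets of ATF4, and each had a pattern of its own. TRIB3, a pseudokinase that restrains ATF4 and DDIT3, maps to chr20:362835-397559 (plus strand). It stood at 27.0 and 28.6 CPM in the controls (129 and 133 counts), 4.99 and 5.40 in the vector-labelled (34 and 27 counts) and 13.2 and 15.8 in the ELK3-labelled libraries (83 and 149 counts). The 3 groups were well apart, with the vector-labelled libraries lowest, where DDIT3 was highest. TRIB3 was 5.35-fold lower than in the controls in the vector-labelled (-2.42 ± 0.21, adjusted p = 3.37e-12) and 1.91-fold lower in the ELK3-labelled libraries (-0.92 ± 0.17, adjusted p = 1.71e-05). It was 2.79-fold higher in the ELK3-labelled than in the vector-labelled libraries (1.5 ± 0.22, adjusted p = 4.63e-07).

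CHAC1, an enzyme that degrades glutathione, maps to chr15:40952962-40956519 (plus strand). The controls held 28.9 and 24.7 CPM, the vector-labelled libraries 21.7 and 26.2 and the ELK3-labelled libraries 12.6 and 15.1. Only the ELK3-labelled pair stood apart. It was lower than the controls by -0.94 ± 0.17 (1.94-fold, adjusted p = 1.47e-05) and than the vector-labelled libraries by -0.77 ± 0.17 (adjusted p = 0.000212). The vector-labelled libraries had -0.17 against the controls (95% interval -0.51 to 0.16, adjusted p = 0.355).

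ASNS, which makes asparagine, maps to chr7:97852118-97872542 (minus strand). Its level was 68.0 and 74.0 CPM in control libraries, 114.3 and 102.5 in vector-labelled and 110.0 and 119.3 in the ELK3-labelled libraries. All 4 plasmid libraries were above both controls and overlapped each other. ASNS rose by 0.61 ± 0.10 (adjusted p = 2.21e-06) and 0.70 ± 0.10 (adjusted p = 2.56e-07). The plasmid groups differed by 0.08, with a 95% interval from -0.11 to 0.27 (adjusted p = 0.471).

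ATF4 binds, with C/EBP partners, to elements whose core is TGATGNAA. This core was searched on both strands of the RefSeq promoter windows of GRCh38.p14, from 250 bases before to 50 bases after each start. Windows were found for 8 of the 10 genes, 13 windows in all. Of these 13 windows 2 held a match, 1 of CHAC1 and 1 of ASNS, beside 3.62% of all 35116 windows. Their sites are shown as the matches found. In the ELK3-labelled libraries ASNS was higher and CHAC1 lower than the controls. CHAC1 was not called in the vector-labelled libraries against the controls, and ASNS was not called between the plasmid groups. Whether the matches bear on these levels was not tested. Each line gives 30 bases of the gene's strand, 5′ to 3′, with the match in capitals.
ASNS, chr7:97872458-97872487, minus strand: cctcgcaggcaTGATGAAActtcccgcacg
CHAC1, chr15:40953251-40953280, plus strand: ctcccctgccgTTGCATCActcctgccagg
The ASNS match runs from 68 to 61 bases before the start on the gene's strand. The CHAC1 match runs from 209 to 202 bases before the start and reads TGATGNAA on the opposite strand. Each site also lies in an annotated untranslated region of 2 longer GENCODE transcripts of its gene. A match is a run of letters in this window, and binding was not measured.

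**Figure D3:**
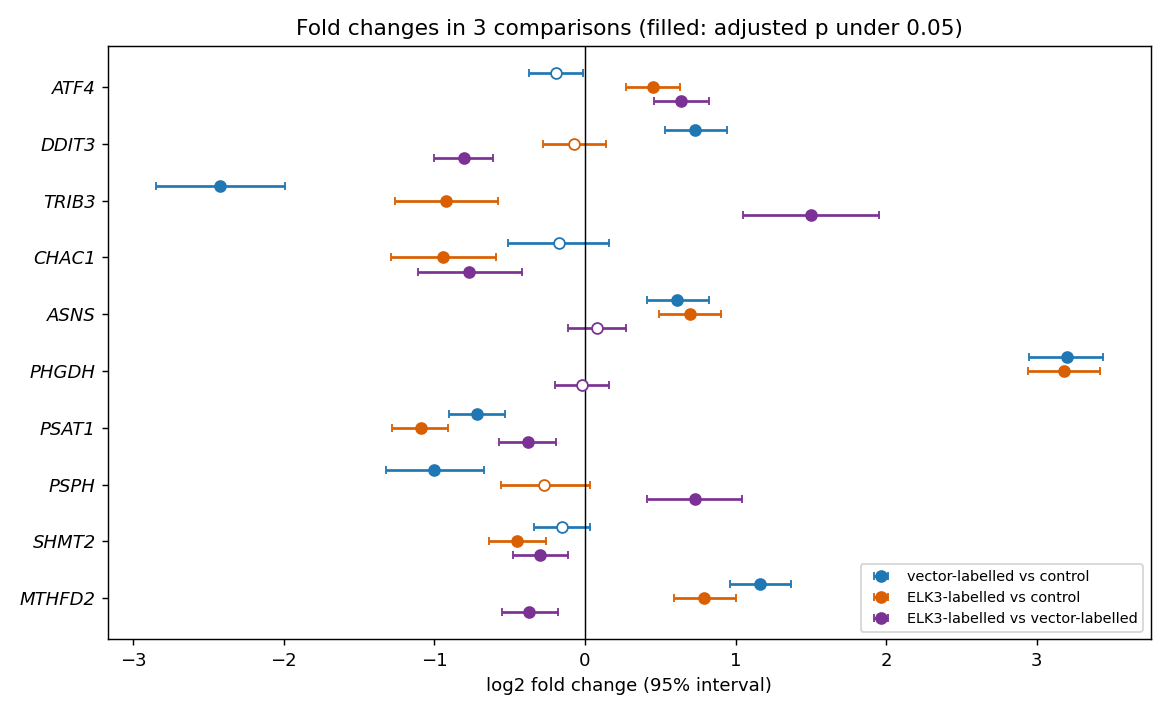
Log2 fold change (horizontal axis) of the 10 genes in the 3 comparisons, with 95% intervals from the fit; filled points have an adjusted p under 0.05. PHGDH lies at 3.20 and 3.18 against the controls and at -0.02 between the plasmid groups, and TRIB3 spans from -2.42 to 1.5.

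The levels of the 10 genes fell into different orders over the groups. Controls were the highest group for TRIB3, CHAC1, PSAT1, PSPH and SHMT2, the vector-labelled libraries for DDIT3, PHGDH and MTHFD2, and the ELK3-labelled libraries for ATF4 and ASNS. Neighbours in the order all differed by the test for TRIB3, PSAT1 and MTHFD2. For each of the other 7 genes, 1 pair of neighbours did not pass it.

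Genes around the 10 were read from 6 lists, and a gene such as ALDH1L2 or PPP1R15A may stand on more than 1 of them. Their counts were not tested as groups and are to be read beside the shares of all genes: 37% higher and 35.3% lower in the vector-labelled libraries, 31.8% and 30.8% in the ELK3-labelled ones, and 30% and 29.6% between the plasmid groups. With library totals, the medians against the controls shifted up with that of all genes. Of 22 tested genes of other ATF4-linked factors and stress genes, 12 rose and 7 fell in the vector-labelled libraries (median log2 fold change 0.62), and 7 rose and 6 fell in the ELK3-labelled ones (median 0.02). Between the plasmid groups, 5 were higher and 10 lower in the ELK3-labelled libraries (median -0.07). ATF3, a stress-induced repressor and activator, was 45.8 CPM in the controls, 332.6 in the vector-labelled and 116.2 in the ELK3-labelled libraries (log2 fold changes 2.86 ± 0.10 and 1.35 ± 0.10 against the controls). NUPR1, a small stress-response chromatin protein, went from 6.91 CPM in the controls to 85.1 and 20.1 (3.62 ± 0.17 and 1.57 ± 0.20). The growth brake DDIT4 fell in both, from 134.8 to 58.2 and 34.3 CPM (-1.21 ± 0.10 and -1.97 ± 0.10). PMAIP1, or NOXA, a pro-death BCL2-family member, rose in both, from 94.6 to 164.6 and 337.8 CPM (0.80 ± 0.10 and 1.84 ± 0.09). The adjusted p of each of these 8 changes was at most 3.88e-08.

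Of 14 tested amino acid transporters, 5 rose and 4 fell in each contrast with the controls (medians -0.01 and -0.04, and 0.12 in both when libraries were scaled by their totals), and 5 were higher and 5 lower between the plasmid groups. SLC7A11, the cystine importer that supplies glutathione synthesis, held 164.6 CPM in the controls, 152.6 in the vector-labelled and 46.4 in the ELK3-labelled libraries. It was lower in the last group by -1.83 ± 0.10 (adjusted p = 1.38e-17) and did not pass the test in the vector-labelled libraries (-0.11 ± 0.09, adjusted p = 0.264). Its partner chain SLC3A2 rose from 219.4 to 496.2 CPM in the vector-labelled (1.18 ± 0.08) and to 271.4 CPM in the ELK3-labelled libraries (0.31 ± 0.08, adjusted p = 0.00185). The glutamine carrier SLC38A1 and the arginine carrier SLC7A1 fell in both, most in the vector-labelled libraries (-1.59 ± 0.09 and -0.99 ± 0.09).

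Cytosolic aminoacyl-tRNA synthetases load amino acids onto tRNA. Of 20 tested, 12 fell and 5 rose in the vector-labelled libraries (median -0.70, and -0.56 with library totals), 10 fell and 4 rose in the ELK3-labelled libraries (median -0.22, and -0.06 with library totals, where 7 rose), and 11 were higher and 3 lower in the ELK3-labelled than in the vector-labelled ones (median 0.25). RARS and FARSA fell from 202.3 to 58.5 and from 156.8 to 48.5 CPM in the vector-labelled libraries (-1.79 ± 0.09 and -1.69 ± 0.11), while AARS rose from 111.2 to 344.6 CPM (1.63 ± 0.09). DARS fell in both plasmid groups (-1.38 ± 0.09 and -1.05 ± 0.09). Of 19 stress kinases, eIF2 and eIF2B subunits and their regulators, 13 fell and 4 rose in the vector-labelled libraries (median -0.58, and -0.45 with library totals), and 9 fell and 2 rose in the ELK3-labelled ones (median -0.22, and -0.06 with library totals). Between the plasmid groups 11 were higher and 4 lower in the ELK3-labelled libraries (median 0.33). GCN1, the activator of the amino acid sensor kinase, fell from 124.9 to 32.0 CPM in the vector-labelled libraries (-1.96 ± 0.11), and the eIF2B subunit gene EIF2B5 from 95.5 to 26.6 CPM (-1.84 ± 0.12). The subunit gene EIF2B3 rose from 50.1 to 159.9 CPM (1.68 ± 0.10). PPP1R15A, or GADD34, which reverses eIF2 phosphorylation, rose from 113.1 to 259.7 CPM there (1.2 ± 0.09, adjusted p = 4.11e-14) and had 103.5 CPM in the ELK3-labelled libraries (-0.13 ± 0.09, adjusted p = 0.217).

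Of 22 other genes of folate metabolism and glycine cleavage, 8 rose and 7 fell in the vector-labelled libraries (median 0.01), 9 rose and 5 fell in the ELK3-labelled ones (median 0.13), and 6 were higher and 6 lower between the plasmid groups (median 0.10). ALDH1L2, the mitochondrial formyl-folate dehydrogenase, rose from 2.01 to 40.0 CPM in the vector-labelled (4.29 ± 0.25, adjusted p = 7.95e-17) and to 9.74 CPM in the ELK3-labelled libraries (2.25 ± 0.30, adjusted p = 8.55e-08). The mitochondrial folate carrier SLC25A32 fell from 54.2 to 8.95 and 23.4 CPM (-2.58 ± 0.17 and -1.19 ± 0.14). SFXN3, a mitochondrial serine carrier, fell from 56.6 to 12.3 and 9.95 CPM (-2.20 ± 0.18 and -2.49 ± 0.18). Of 19 tested genes of serine use and of proline and asparagine metabolism, 7 rose and 6 fell in the vector-labelled libraries (median 0.00), 3 rose and 10 fell in the ELK3-labelled ones (median -0.34), and 5 were higher and 9 lower between the plasmid groups (median -0.34). CBS, which joins serine with homocysteine, rose like PHGDH in both plasmid groups, from 19.1 to 123.2 and 112.5 CPM (2.69 ± 0.12 and 2.56 ± 0.12), with -0.13 ± 0.09 between them (adjusted p = 0.239). The serine racemase gene SRR fell by -1.66 ± 0.11 in the vector-labelled and -0.51 ± 0.10 in the ELK3-labelled libraries. ASNSD1 rose in the vector-labelled (0.92 ± 0.11) and fell in the ELK3-labelled libraries (-0.68 ± 0.12).

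**Figure D4:**
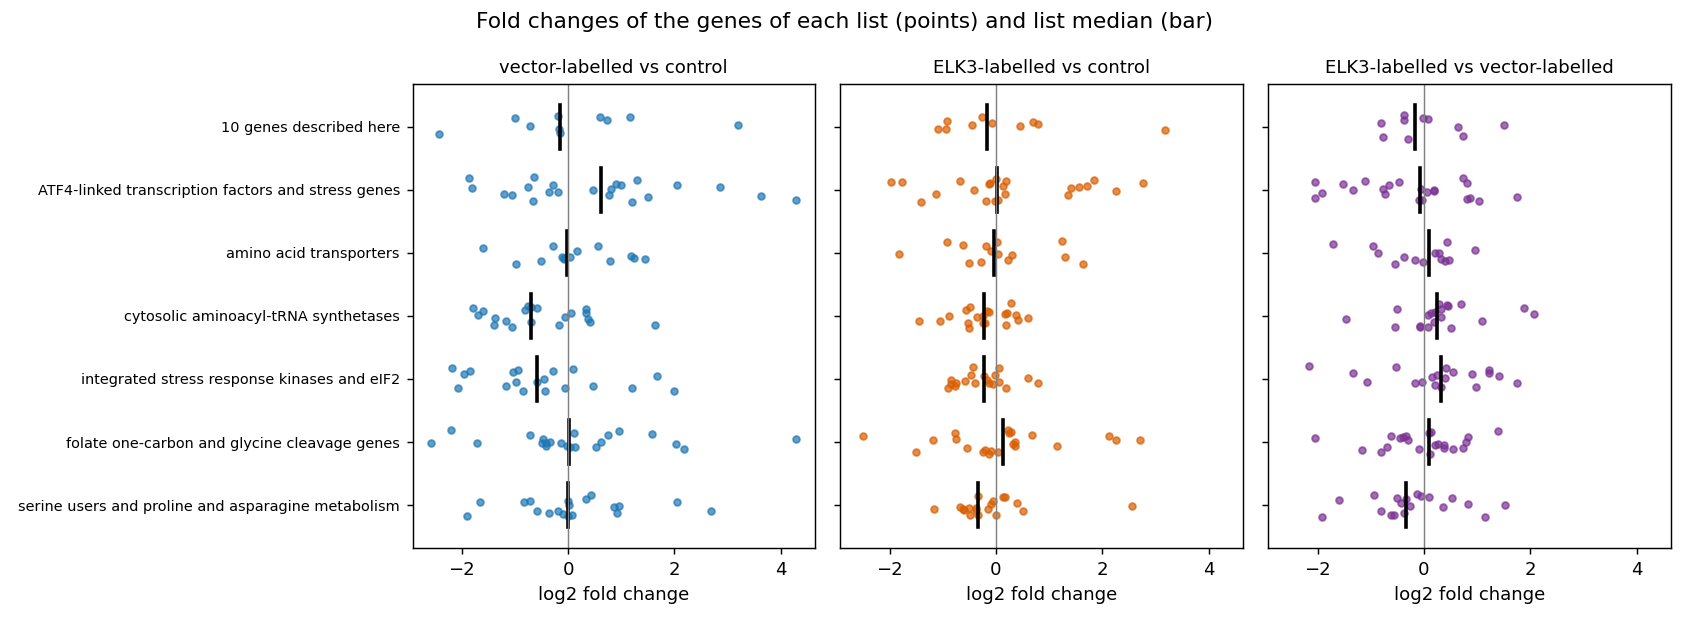
Log2 fold changes (horizontal axis) of the 10 genes and of the tested genes of 6 lists in the 3 comparisons; points are genes, with vertical scatter only to separate them, and black bars are list medians. Every list spreads to both sides of 0, and in the vector-labelled libraries the medians of the synthetases (-0.70) and of the stress kinase and eIF2 list (-0.58) lie below 0.

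Patterns were also compared gene by gene over the 6 libraries, as the root mean square distance between log2 CPM values centred per gene. The nearest genes to PHGDH were GNAZ (distance 0.064) and TMTC1 (0.093), with log2 fold changes of 3.58 and 3.12 in the vector-labelled and 3.52 and 3.20 in the ELK3-labelled libraries; GNAZ had 5 and 3 counts in the controls. The nearest to MTHFD2 were IGF1R (0.025) and CPVL (0.039), to TRIB3 KIAA0020 (0.046) and MANBAL (0.087), and to ATF4 GRWD1 (0.029) and POLE3 (0.044). None of the nearest 2 genes of these 4 members was another of the 10. With 3 groups of libraries many genes share such a pattern.

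Reads of some of these genes may not be separable from those of neighbours or copies. In GENCODE 29, 4 of the 10 overlap other genes. On the opposite strand, and listed in the count tables, are MARS and MBD6 at DDIT3, NDUFA4L2 at SHMT2 and SLC4A5 at MTHFD2. The annotation also places AC022506.1 and MIR616 at DDIT3 and AC079781.5 at ASNS on the same strand, and AC005326.1 opposite ASNS, AC137834.2 opposite SHMT2 and AC006030.1 opposite MTHFD2, which were not analysed here. For SLC4A5, control libraries had 26 and 33 counts, vector-labelled ones 143 and 73, and ELK3-labelled ones 74 and 123. MARS was not called in any of the 3 comparisons. The use of strand in counting is not given in the sources used here. By name the annotation holds 4 pseudogenes each of ATF4, ASNS and PSAT1, 7 of MTHFD2 and 1 of PSPH. Of these, MTHFD2P1 is listed in the count tables, with 0 to 3 counts per library. How reads shared with such copies were counted is not stated, so the values of these 5 genes are uncertain to that extent.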

How the data were processed

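RNA was sequenced from 6 libraries made with a Lexogen QuantSeq kit, per the labels. The authors deposited raw counts per gene symbol, with no scaling; the submitters' processing notes name Bowtie2, edgeR and hg19 without versions, and the counting tool, annotation and filters are not given in the sources used here. Lines sharing a symbol were summed (1561 lines of 286 symbols). Groups follow the labels. Replicates differed beyond counting error (chi-square over its degrees of freedom, 2.21 to 3.02), which does not show that they were separate cultures. Each library was treated as 1 sample.

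The model was run under R 4.3.3 in edgeR 4.0.16, with filterByExpr, TMM, and 1 robust quasi-likelihood model with group means over all 6 libraries (3 residual degrees of freedom). Tests were two-sided, with Benjamini-Hochberg adjustment over 15386 genes and a threshold of 0.05. SE and 95% intervals come from this fit. CPM were TMM-scaled; SD is over n = 2. On simulated counts for the vector-labelled against control contrast, over 15386 genes, the test recovered 94 of the 100 genes given a change of 1 log2 unit. It recovered all 100 given a change of 2, with 4 false calls. Only those genes were changed, as many up as down, and counts were drawn with the spread fitted here. The changed genes were picked only among genes above a low cut on mean level, so recovery of genes below it was not tried. In the data 72.3% of tested genes were called in this contrast, so the simulation does not try the scaling under such wide change. limma 3.58.1 (voom) and DESeq2 1.42.0 served as alternatives, beside other scaling, filters, a replicate block, subsets of libraries and each library left out. Tables and plots used Python 3.11.15 (numpy 2.4.6, pandas 2.3.3) and matplotlib 3.10.9.

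The members, lists and markers were chosen with earlier results of these data known. Named besides the members were up to 4 genes per list, those with the smallest p in any contrast, and the 2 genes of nearest pattern to a member. A few genes that this rule names are not reported here. Pathway lists had 14 to 22 tested genes. Marker lists were for MDA-MB-231, HEK293, luminal breast, liver, and lymphocytes and NK cells.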

Additional observations from a re-analysis of the deposited data

How the results depend on the processing

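Over 15 alternatives in each of 3 comparisons, the 10 genes gave 450 values. Of these, 438 kept their direction and their side of the threshold, 5 changed sign, 2 lost a call and 5 gained one. The changes of sign were all in differences without a call: DDIT3 between ELK3-labelled libraries and controls was 0.09 with library totals, and PHGDH between the plasmid groups was 0.01 with library totals, 0.04 with no filter, and -0.06 to 0.03 when single replicates were left out (0.03 without vector-labelled replicate 2, 0 without ELK3-labelled replicate 1). The 2 lost calls were those of SHMT2 between the plasmid groups, -0.21 without vector-labelled replicate 2 and -0.24 without ELK3-labelled replicate 2. The 5 gained ones were ATF4 in the vector-labelled libraries against the controls, at -0.24 with no filter (adjusted p = 0.0125), -0.31 without control replicate 1, -0.20 without either ELK3-labelled replicate and -0.20 without symbols on several lines (adjusted p = 0.049). The cause was not tested. Among the other named genes, SLC7A11 in the vector-labelled libraries (0.02) and PPP1R15A in the ELK3-labelled ones (0.03) changed sign with library totals against the controls. In the same ELK3-labelled contrast, CTH (not called, as EIF2AK3) ranged from -0.14 to 0.46 and EIF2AK3 from -0.37 to 0.06 when single replicates were left out. Of 540 counts of called genes per list, 533 stayed within 1.5 times. With library totals, the transporters that fell in the vector-labelled libraries went from 4 to 2. In the ELK3-labelled libraries against the controls, the synthetases that rose then went from 4 to 7, the folate genes that fell from 5 to 3 (as with DESeq2), and the genes of serine use that fell from 10 to 6. DESeq2 took the ATF4-linked genes that fell in the vector-labelled libraries from 7 to 4. Without ELK3-labelled replicate 2, the transporters higher between the plasmid groups went from 5 to 3. These list counts were added after the data were seen.

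With the replicate number as a block, 7, 8 and 8 of the 10 genes were called, as without it, and 11057, 9531 and 9051 of all genes beside 11117, 9633 and 9174. It changed no call of the 10. The deviations of same-numbered libraries from their group means had correlations of -0.056 to 0.033 across genes. With 2 libraries per group, these values cannot settle whether same-numbered libraries share a culture or preparation. Scaling by library totals moved the median of all genes from 0.05 to 0.18 and from 0.02 to 0.18 in the contrasts with the controls. The share of higher genes among those called went from 50.8% to 61.1% for the ELK3-labelled libraries. Depth limits low genes: 0 counts in a library allow up to 3 counts, or 0.319 to 0.645 CPM, for counting error only.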

Other observations

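Among the list genes outside the naming rule, 4 are given here that were chosen after their values were seen. All 4 rose in the vector-labelled libraries against the controls. Others of the same lists fell there, such as CEBPB (-1.81) and TNFRSF10B (-1.86). EIF2AK3, or PERK, the stress kinase of the endoplasmic reticulum, held 15.5 CPM in the controls, 61.9 in the vector-labelled and 14 in the ELK3-labelled libraries. It rose by 2.0 in the vector-labelled libraries (adjusted p = 2.66e-13) and was lower by -2.16 in the ELK3-labelled than in the vector-labelled ones (adjusted p = 2.48e-14). Of the other eIF2 kinase genes, EIF2AK4 (-0.98) and EIF2AK2 (-0.28) fell in the vector-labelled libraries against the controls, and EIF2AK1 (-0.06) was not called. CTH, which makes cysteine from cystathionine, was also highest in the vector-labelled libraries, with 14.8, 60.9 and 16.1 CPM in the same order of groups (2.05 against the controls, adjusted p = 1.89e-13). STC2, a secreted glycoprotein raised by stress, and SESN2, a sensor that restrains growth signalling, rose most in the ELK3-labelled libraries. STC2 went from 5.94 CPM in the controls to 12.0 and 40.5 (2.76 in the ELK3-labelled libraries, adjusted p = 2.1e-14), and SESN2 from 48.9 to 91.6 and 160.9 (1.72, adjusted p = 1.98e-16).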
